A study of Homo sapiens with 24 samples.

Results

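The transcripts described here are those of 9 small nucleolar RNA (snoRNA) host genes, chosen by name from the 28395 gene identifiers of the count tables. They are GAS5 (NCBI Gene 60674), ZFAS1 (NCBI Gene 441951), SNHG1 (NCBI Gene 23642), SNHG5 (NCBI Gene 387066), SNHG6 (NCBI Gene 641638), SNHG8 (NCBI Gene 100093630), SNHG12 (NCBI Gene 85028), SNHG15 (NCBI Gene 285958) and SNHG16 (NCBI Gene 100507246). All 9 were found and passed the filter on low counts in both lines, and together they held 0.212% to 0.360% of the counts of a library. They were read by 3′ RNA sequencing, which covers a stretch near the polyadenylated end of a transcript, in 2 established human lines of multiple myeloma, JJN3 and MM1.S. Multiple myeloma is a malignancy of plasma cells. In each line 3 libraries came from cells given CX-5461 at 500 nM together with panobinostat at 50 nM, 3 from cells given panobinostat at 50 nM, 3 from cells given CX-5461 at 500 nM and 3 from cells given vehicle, all for 24 h. CX-5461 is a small molecule that blocks RNA polymerase I, the enzyme that makes ribosomal RNA, and panobinostat blocks the deacetylases that act on histones and other proteins. The lines differ in genotype, and each genotype was represented by 1 line, so that genotype and any other difference between the lines cannot be told apart. Whether the replicates were grown as separate cultures is not in the labels, and the p-values below hold for the spread among these libraries only, which may be technical. In bulk libraries such as these, fewer cells of a type and less RNA per cell cannot be told apart.

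SnoRNAs are short nucleolar RNAs that guide chemical modification of ribosomal RNA. Those with box C and D motifs guide methylation of the ribose, and those with box H and ACA motifs guide the change of uridine to pseudouridine. In human cells most of them are cut out of the introns of longer host transcripts, and the long noncoding hosts keep little coding potential in their spliced exons. Many host genes start transcription at a cytosine followed by a run of pyrimidines (a 5′ terminal oligopyrimidine start, 5′TOP), as the genes of ribosomal proteins do, and several spliced host RNAs, GAS5 among them, are broken down by nonsense-mediated decay when they are translated. GAS5, whose name stands for growth arrest-specific 5, carries box C/D snoRNAs in its introns, as do ZFAS1 (the SNORD12 family), SNHG1 (SNORD22 and SNORD25 to SNORD31), SNHG5 (SNORD50A and SNORD50B), SNHG6 (SNORD87) and SNHG16 (the SNORD1 family). SNHG8 (SNORA24) and SNHG15 (SNORA9) carry box H/ACA snoRNAs, and SNHG12 carries both kinds (SNORA16A, SNORA44, SNORA61 and SNORD99).

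The starts of the genes are shown because the 5′TOP start is the sequence feature these hosts are known for. RefSeq promoter windows on GRCh38.p14 were found for 7 of the 9 genes. A single window, the first listed, was taken per gene, so any other annotated start of a gene was not examined. The 60 bases below run 5′ to 3′ on the strand of the gene, 30 before the annotated start and 30 from it. Capitals mark the longest run of C and T that touches the stretch from 5 bases before the start to base 10 after it.
ZFAS1 (chr20:49278612-49278671, plus strand): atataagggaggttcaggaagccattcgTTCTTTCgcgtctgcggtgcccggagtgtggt
SNHG5 (chr6:85678704-85678763, minus strand): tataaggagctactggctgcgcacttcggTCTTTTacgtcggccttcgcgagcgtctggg
SNHG12 (chr1:28581844-28581903, minus strand): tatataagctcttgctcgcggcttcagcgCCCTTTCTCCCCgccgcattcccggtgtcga
SNHG1 (chr11:62855856-62855915, minus strand): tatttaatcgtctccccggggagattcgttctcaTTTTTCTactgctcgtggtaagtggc
SNHG8 (chr4:118278732-118278791, plus strand): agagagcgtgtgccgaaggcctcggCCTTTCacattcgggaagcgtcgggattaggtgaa
SNHG16 (chr17:76557734-76557793, plus strand): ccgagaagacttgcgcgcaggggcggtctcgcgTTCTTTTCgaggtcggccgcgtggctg
GAS5 (chr1:173869016-173869075, minus strand): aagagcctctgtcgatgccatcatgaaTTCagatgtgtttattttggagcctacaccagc
At the annotated start itself, ZFAS1, SNHG5 and SNHG12 had a C followed by 4 bases that were each C or T, the letters of a 5′TOP start, which is 3 of 7 (42.9%). The same letters stood at the annotated start of 4.04% of 27303 RefSeq windows and of 41 of 62 ribosomal protein genes (66.1%). In SNHG1 and SNHG16 the longest pyrimidine run began after the annotated start. A shorter run in SNHG1, ttctc, spanned the start, whose base was a C. In SNHG8 the longest run ended at the start base, and in GAS5 it was 3 bases long and ended before the start. CACGTG, the E-box motif, was searched on both strands of the whole 300-base windows, in which it reads the same on either strand, and was in 0 of the 7, in 7.44% of all windows and in 4.84% of those of ribosomal protein genes. The deposited counts hold no coordinates and were made on GRCh37, so the windows describe the annotated genes and not the reads.

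Total counts per library ranged from 4751893 to 7305069, and levels are given in CPM, the counts of a gene scaled to a common library total. Statements that groups overlap or not refer to these levels. The log2 fold changes and tests also use a scaling factor per library (TMM). It was 0.921 to 0.956 in the MM1.S vehicle libraries and 1.046 to 1.068 in those with both drugs. Groups that overlap in CPM may therefore be apart on the scale tested, and the reverse. Of 10 plasma cell markers, 9 in JJN3 and 10 in MM1.S averaged over 1 CPM in every group; the exception was CD38. Their summed level in MM1.S was 1035 to 1192 CPM with both drugs, 1099 to 1367 CPM with panobinostat and 6977 to 7767 CPM with CX-5461, against 8514 to 8984 CPM with vehicle. In JJN3 it was 2707 to 3237 CPM with both drugs, 3284 to 3929 CPM with panobinostat and 3964 to 5052 CPM with CX-5461, against 4076 to 5085 CPM with vehicle. The summed level of 14 markers of other cell types was 418 to 965 CPM in JJN3 libraries, most of it HBB, and 15.7 to 29.8 CPM in MM1.S libraries, while CD3D was at 0 in every library. The part of any of these markers in the levels of the host genes was not tested.

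In JJN3 the libraries numbered 2 stood apart in the host genes themselves. Library 2 was the highest of its group in 31 of the 36 sets of 1 gene in 1 JJN3 group, and library 1 the lowest in 27. GAS5, ZFAS1, SNHG5, SNHG6 and SNHG8 had library 2 highest in all 4 JJN3 groups. ZFAS1, for example, measured 296, 564 and 315 CPM in the vehicle libraries numbered 1, 2 and 3, and 259, 542 and 293 CPM in those with panobinostat. In MM1.S library 2 was the highest in 19 of 36 sets and library 1 the lowest in 18. Over all genes, same-numbered JJN3 libraries deviated together, so JJN3 results below are given without a block for the replicate number and, where the call changes, with it. The counts of hosts called are also given without the 4 libraries numbered 2.

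**Figure D1:**
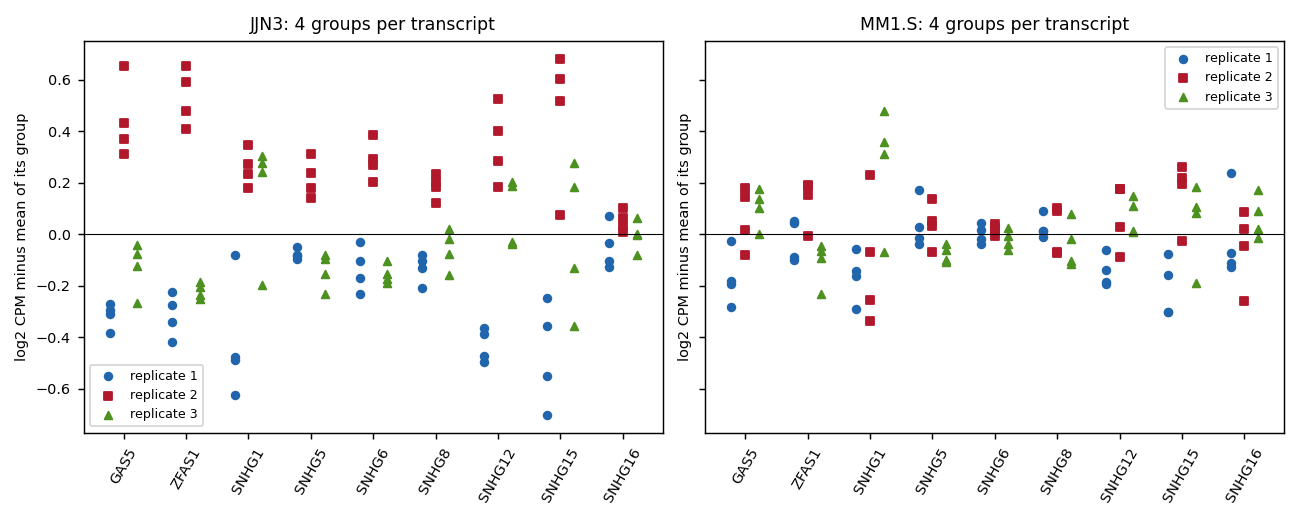
Deviation of each library from the mean of its group, in log2 CPM on the vertical axis, for the 9 host genes on the horizontal axis, with JJN3 on the left and MM1.S on the right; each gene has 4 groups, and symbols are replicates 1 to 3. In JJN3 replicate 2 lies above 0 in all 4 groups for GAS5, ZFAS1, SNHG5, SNHG6 and SNHG8.

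**Figure D2:**
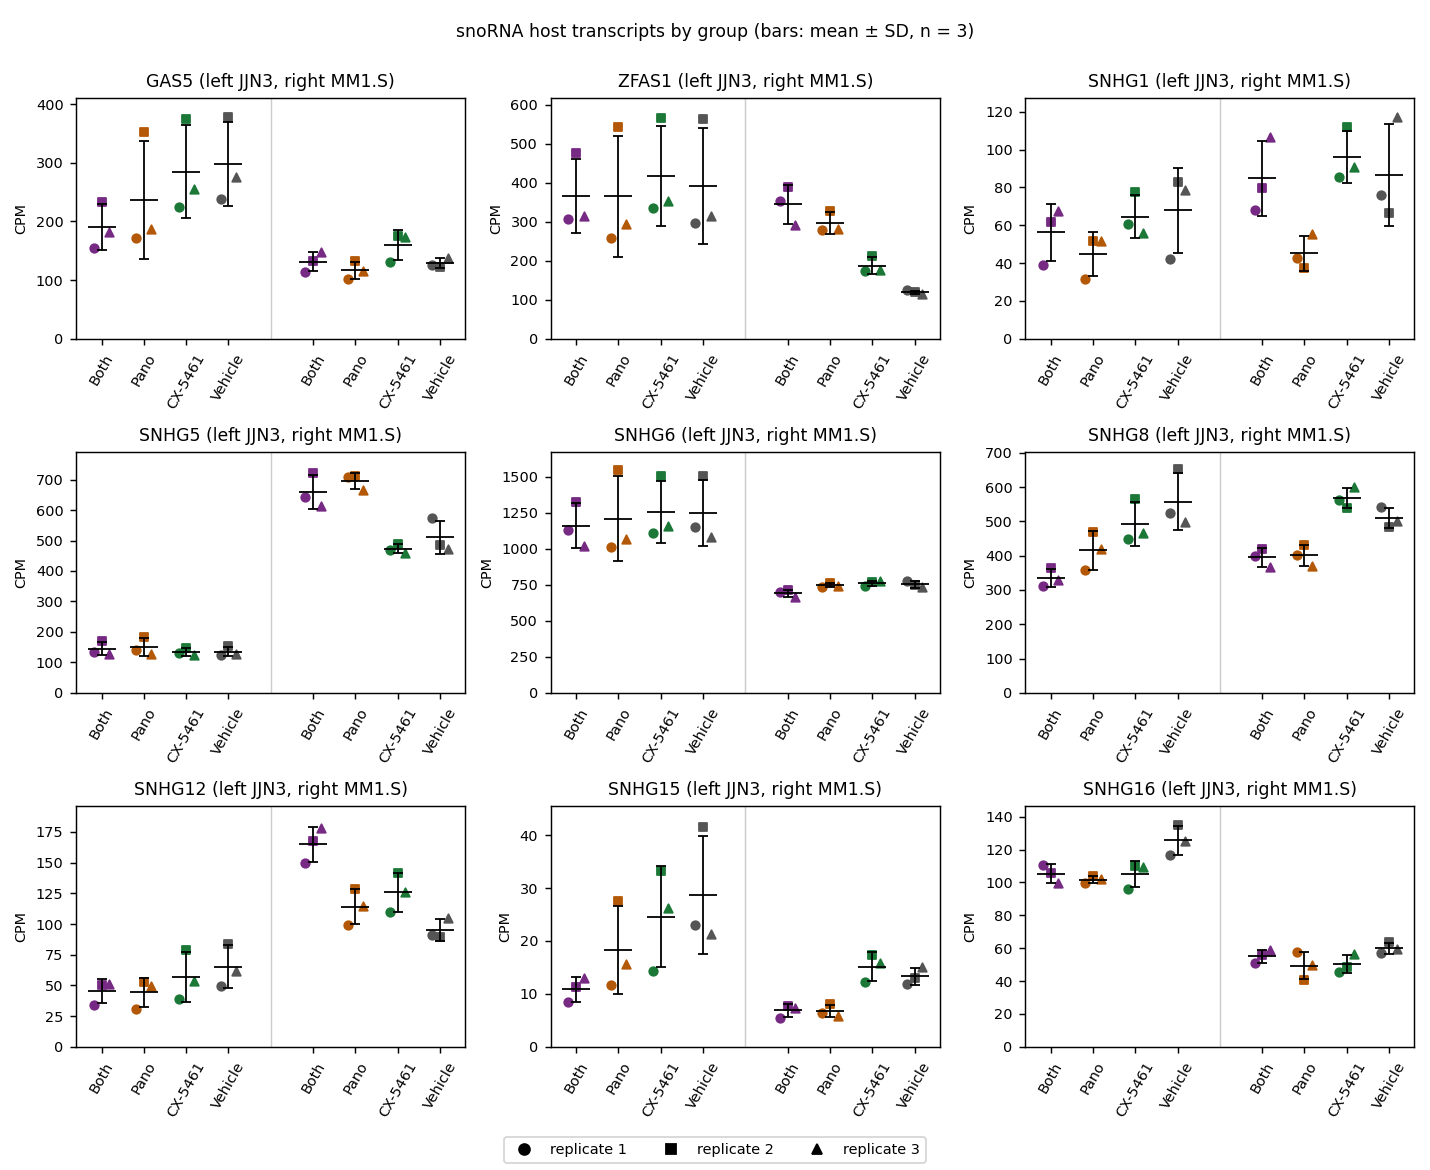
Level of each of the 9 host genes in every library, in CPM on the vertical axis of each panel (starting at 0), by line and treatment on the horizontal axis; symbols are replicates 1 to 3, and bars are the mean ± SD (n = 3). ZFAS1 in MM1.S averages 344 ± 50.1 CPM with both drugs and 119.5 ± 4.10 CPM with vehicle, and for GAS5 and ZFAS1 the JJN3 libraries of a group are spread more widely than those of MM1.S.

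The activity of RNA polymerase I was not measured, and CX-5461 was set against vehicle to ask what the compound does to the transcripts. In MM1.S it raised 2 of the 9 hosts, ZFAS1 and SNHG12, and lowered 0 (edgeR quasi-likelihood test, adjusted p under 0.05 over 12030 genes); 9.68% of all genes tested were called higher and 7.06% lower. ZFAS1 measured 174, 212 and 175 CPM with CX-5461, against 124, 119 and 116 CPM with vehicle. The groups did not overlap, and the log2 fold change was 0.57 ± 0.11 (SE, edgeR adjusted p = 0.000566). SNHG12 measured 109.9, 141 and 126 CPM with CX-5461, against 91.0, 89.2 and 105 CPM with vehicle, again without overlap (log2 fold change 0.33 ± 0.11, edgeR adjusted p = 0.0384). Its call was lost on leaving out vehicle library 1 (0.30), vehicle library 2 (0.29), CX-5461 library 2 (0.25), CX-5461 library 3 (0.31) or panobinostat library 3 (0.32), while that of ZFAS1 was kept in all 20 alternative settings.

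The other 7 hosts did not pass with CX-5461 in MM1.S. GAS5 measured 130.5, 175 and 174 CPM with CX-5461, against 126, 122 and 138 CPM with vehicle, so that 2 of 3 treated libraries lay above the vehicle libraries (log2 fold change 0.24 ± 0.12, edgeR adjusted p = 0.167). SNHG16 measured 45.8, 48.4 and 56.3 CPM with CX-5461, against 57.0, 63.5 and 59.3 CPM with vehicle, all 3 below (log2 fold change -0.33 ± 0.13, edgeR adjusted p = 0.0772). It passed on leaving out CX-5461 library 3 (-0.43) or panobinostat library 1 or 2 (-0.33 each), and with the replicate block. SNHG5 had a log2 fold change of -0.19, and SNHG1, SNHG6, SNHG8 and SNHG15 lay between -0.06 and 0.11, all with overlapping libraries. The median over the 9 was 0.08, beside 0.01 over all genes tested.

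Panobinostat in MM1.S divided the hosts: 2 rose (ZFAS1 and SNHG5), 5 fell (GAS5, SNHG1, SNHG8, SNHG15 and SNHG16) and 2 did not pass. It also changed most genes of these cells, with 36.9% of all genes tested called higher and 32.9% lower, so that the share of hosts called is near that of all genes. Scaling to library size alone moved the median log2 fold change of all genes by 0.14 and the split of the hosts to 3 higher and 4 lower. Under that scaling GAS5 lost its call (-0.14) and SNHG12 gained one (0.27), while the other 6 called hosts kept their direction and call.

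ZFAS1 showed the largest change of the 9. It measured 278, 328 and 282 CPM with panobinostat, against 124, 119 and 116 CPM with vehicle, far from overlap (log2 fold change 1.17 ± 0.11, edgeR adjusted p = 7.87e-10). SNHG5, the host of SNORD50A and SNORD50B, measured 709.9, 711 and 666 CPM with panobinostat, against 573, 485 and 472 CPM with vehicle. Those groups did not overlap either (log2 fold change 0.31 ± 0.10, edgeR adjusted p = 0.00686), but the call was lost without vehicle library 2 (0.25) or vehicle library 3 (0.24).

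The hosts of box H/ACA snoRNAs alone, SNHG8 and SNHG15, both fell with panobinostat in MM1.S. SNHG8 measured 403, 429.8 and 369 CPM with panobinostat, against 542, 484 and 502 CPM with vehicle (log2 fold change -0.48 ± 0.10, edgeR adjusted p = 8.88e-05). SNHG15 measured 6.38, 8.06 and 5.90 CPM with panobinostat, against 11.9, 13.0 and 15.1 CPM with vehicle (log2 fold change -1.105 ± 0.21, edgeR adjusted p = 4.06e-05). Neither gene had overlapping groups, and both calls were kept in all 20 alternative settings.

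Of the box C/D hosts, SNHG1 fell the most. It measured 42.9, 37.4 and 55.4 CPM with panobinostat, against 76.2, 66.6 and 117 CPM with vehicle, every treated library below every vehicle library (log2 fold change -1.08 ± 0.22, edgeR adjusted p = 0.000811). GAS5 measured 103, 132 and 116 CPM with panobinostat, against 126, 122 and 138 CPM with vehicle, and SNHG16 measured 57.6, 40.9 and 49.5 CPM with panobinostat, against 57.0, 63.5 and 59.3 CPM with vehicle. Both genes had groups that overlapped in CPM, which leaves out the TMM factors of the test. Their log2 fold changes were -0.28 ± 0.12 (GAS5, edgeR adjusted p = 0.0385) and -0.41 ± 0.13 (SNHG16, edgeR adjusted p = 0.00613). The call of GAS5 was lost without vehicle library 1 (-0.28), vehicle library 3 (-0.25), panobinostat library 1 (-0.24) or panobinostat library 3 (-0.27). That of SNHG16 was lost without panobinostat library 2 (-0.29). SNHG6, the host of SNORD87, stood at 739, 763 and 745 CPM with panobinostat, against 777, 749.5 and 734 CPM with vehicle (log2 fold change -0.15 ± 0.09), and SNHG12 had a log2 fold change of 0.13 ± 0.11. The median over the 9 was -0.28, beside 0.07 over all genes tested.

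**Figure D3:**
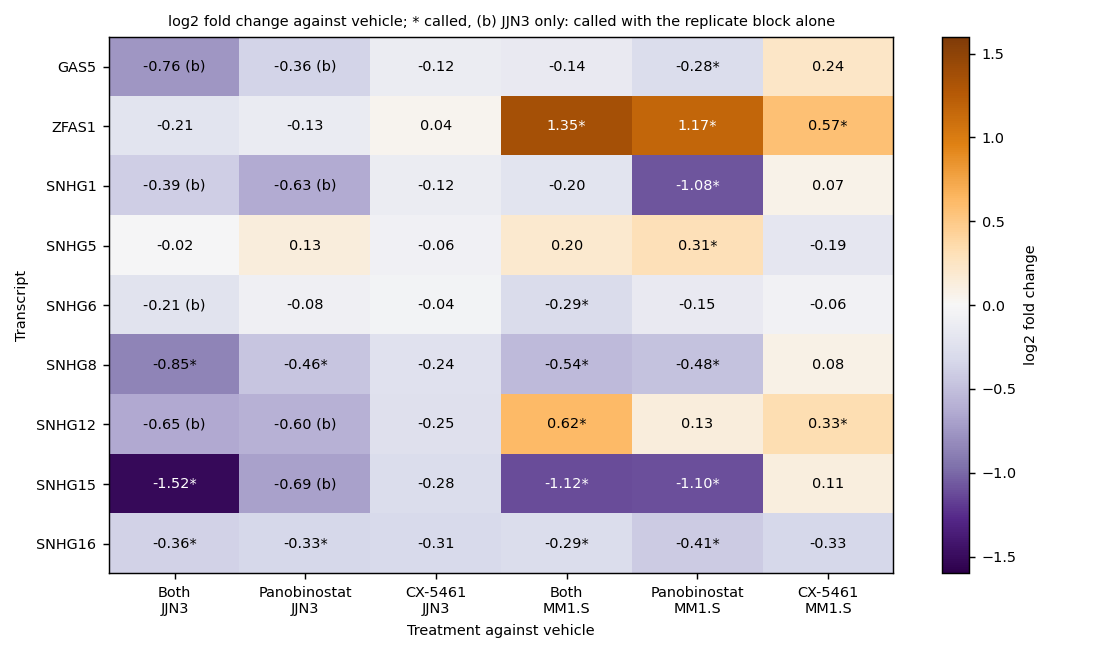
Log2 fold change against vehicle of each host gene (vertical axis) for both drugs, panobinostat and CX-5461 in JJN3 and in MM1.S (horizontal axis), with orange for higher and purple for lower; an asterisk marks a call by the edgeR test, and (b) a JJN3 call made with the replicate block alone. ZFAS1 is at 1.35 with both drugs in MM1.S and at -0.21 with both drugs in JJN3, while SNHG8 and SNHG15 are below 0 with panobinostat in both lines.

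The combination in MM1.S raised 2 hosts, ZFAS1 and SNHG12, and lowered 4, SNHG6, SNHG8, SNHG15 and SNHG16, with 37% of all genes tested called higher and 33.2% lower. ZFAS1 measured 352, 390.1 and 291 CPM with both drugs, against the 116 to 124 CPM of the vehicle libraries (log2 fold change 1.35 ± 0.11, edgeR adjusted p = 4.84e-11). SNHG12 measured 149.5, 168 and 178 CPM with both drugs, against 91.0, 89.2 and 105 CPM with vehicle (log2 fold change 0.62 ± 0.11, edgeR adjusted p = 1.55e-05). In both genes every library with the combination lay above every vehicle library.

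SNHG8 measured 398, 421 and 367 CPM and SNHG15 5.53, 7.79 and 7.33 CPM with both drugs, all below their vehicle libraries. Their log2 fold changes were -0.54 ± 0.10 (SNHG8, edgeR adjusted p = 2.27e-05) and -1.12 ± 0.21 (SNHG15, edgeR adjusted p = 3.24e-05). SNHG6 fell to 700.3, 712 and 664 CPM with both drugs, against 777, 749.5 and 734 CPM with vehicle (log2 fold change -0.29 ± 0.09, edgeR adjusted p = 0.00376), a call lost under library size alone (-0.12). SNHG16 was lower by -0.29 ± 0.13 on the log2 scale (edgeR adjusted p = 0.0473), with groups that overlapped in CPM. This last call was lost with DESeq2's size factors (-0.28), with library size alone (-0.11), with DESeq2's test (-0.28), without the 10 most abundant genes (-0.28), without vehicle library 1, 2 or 3 (-0.32, -0.28 and -0.32) and without combination library 1 or 2 (-0.27 and -0.31).

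SNHG5 measured 641, 723 and 615 CPM with both drugs, all above its vehicle libraries in CPM, a scale without the TMM factors of the test. At 0.20 ± 0.10 on the log2 scale it did not pass (edgeR adjusted p = 0.075). It passed on leaving out vehicle library 1 (0.29), under library size alone (0.37) and with the replicate block. GAS5 and SNHG1 had log2 fold changes of -0.14 ± 0.12 and -0.20 ± 0.21. Library size alone moved the median of all genes by 0.17 and the split of the hosts to 3 higher and 2 lower, with SNHG5 called (0.37), and turned the uncalled value of GAS5 to 0.03. The median over the 9 was -0.20, beside 0.06 over all genes.

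Against panobinostat alone, the combination in MM1.S raised SNHG1 and SNHG12 and lowered 0 hosts, with 2.44% of all genes tested called higher and 1.65% lower. SNHG1 measured 68.1, 79.5 and 107 CPM with both drugs, against 42.9, 37.4 and 55.4 CPM with panobinostat (log2 fold change 0.88 ± 0.22, edgeR adjusted p = 0.0491). Its call was lost in 11 of 20 alternative settings, among them leaving out panobinostat library 1 (0.86), 2 (0.74) or 3 (1.03), combination library 2 (0.92) or 3 (0.67), vehicle library 1 (0.87) or CX-5461 library 1, 2 or 3 (0.87 each). SNHG12 measured 149.5, 168 and 178 CPM with both drugs, against 99.5, 128 and 115 CPM with panobinostat (log2 fold change 0.50 ± 0.11, edgeR adjusted p = 0.00823). That call was lost without panobinostat library 3 (0.49) or combination library 3 (0.43). ZFAS1 did not pass in this comparison (log2 fold change 0.18 ± 0.11, edgeR adjusted p = 0.366).

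Against CX-5461 alone, the combination in MM1.S raised 3 hosts and lowered 4, with 35.9% of all genes tested called higher and 33.9% lower. The higher ones were ZFAS1 (log2 fold change 0.78), SNHG5 (0.38) and SNHG12 (0.30), and the lower ones SNHG15 (-1.23), SNHG8 (-0.62), GAS5 (-0.38) and SNHG6 (-0.235). The call of SNHG12 was lost without CX-5461 library 1 (0.21), combination library 2 (0.27) or 3 (0.21) and with no filter (0.24), and that of SNHG6 without CX-5461 library 3 (-0.22) and under library size alone (-0.14). SNHG1 passed without combination library 3 (-0.51). This comparison and the one against panobinostat share the 3 combination libraries. The order of the mean levels of ZFAS1 in MM1.S was thus both drugs, panobinostat, CX-5461 and vehicle, with the first pair overlapping and each lower step free of overlap. For SNHG12 it was both drugs, CX-5461, panobinostat and vehicle, and there the combination stood clear of the others, whose neighbours overlapped. For SNHG8 and SNHG15 the gap lay between vehicle and the groups with panobinostat, and for SNHG1 between the panobinostat group and the other 3.

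The combination was compared with the sum of the single effects as a departure from additivity on the log2 scale. In MM1.S 0 of the 9 hosts passed (edgeR), with 3 at an unadjusted p under 0.05, and 0 by DESeq2 or limma-voom; 1.87% of all genes tested were called higher and 3.65% lower. The 3 were SNHG1 (0.80 ± 0.31, edgeR adjusted p = 0.17), SNHG16 (0.45) and ZFAS1 (-0.39 ± 0.15, edgeR adjusted p = 0.15). SNHG16 passed without panobinostat library 1 (0.60), and SNHG1 without a filter on low counts (0.81, edgeR adjusted p = 0.000624). In a fit with the replicate block SNHG1 (0.76, edgeR adjusted p = 0.0316) and ZFAS1 (-0.385, edgeR adjusted p = 0.0412) passed. Apart from the alternatives named for SNHG5 and SNHG16, the block was not used for the MM1.S results above. Over all genes, same-numbered MM1.S libraries deviated together weakly at most (correlations -0.0474 to 0.29, different numbers -0.29 to 0.1455). In JJN3 0 of 9 passed (edgeR, DESeq2 and limma-voom), with 0 at an unadjusted p under 0.05, and 0% of all genes were called higher and 0% lower.

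In JJN3, CX-5461 changed 0 of the 9 hosts against vehicle by edgeR, as by DESeq2 and limma-voom, and SNHG16 alone had an unadjusted p under 0.05 (1 of 9). Among all genes 0% were called higher and 0% lower, and with the replicate block 0.605% were called higher and 0.771% lower, with 0 of the hosts among them. SNHG16 measured 96.2, 109.8 and 109.6 CPM with CX-5461, against 117, 135 and 125 CPM with vehicle, without overlap (log2 fold change -0.31 ± 0.11, edgeR adjusted p = 0.778). The other log2 fold changes lay between -0.28 and 0.04, and ZFAS1, at 336, 566 and 352 CPM with CX-5461, was at 0.04 ± 0.35.

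Panobinostat in JJN3 lowered 2 hosts, SNHG8 and SNHG16, and raised 0, with 15% of all genes tested called higher and 10.9% lower. SNHG8 measured 358, 469 and 419 CPM with panobinostat, against 524, 652 and 497 CPM with vehicle (log2 fold change -0.46 ± 0.14, edgeR adjusted p = 0.0222). SNHG16 measured 99.3, 104 and 102 CPM with panobinostat, against 117, 135 and 125 CPM with vehicle (log2 fold change -0.33 ± 0.11, edgeR adjusted p = 0.0345). In neither gene did the groups overlap. The call of SNHG8 was lost without vehicle library 2 (-0.36), panobinostat library 1 (-0.40) or panobinostat library 3 (-0.445). That of SNHG16 was lost without vehicle library 2 (-0.31) or 3 (-0.36), without panobinostat library 1 (-0.35) or 3 (-0.32), without the 4 libraries numbered 2 (-0.31), without a filter on low counts (-0.36) and under library size alone (-0.30).

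With the replicate block, panobinostat in JJN3 lowered 6 hosts and raised 0 (22.4% of all genes tested higher and 19.5% lower). The 4 added were GAS5 (log2 fold change -0.40 ± 0.09, edgeR adjusted p = 0.000639), SNHG1 (-0.62 ± 0.14, edgeR adjusted p = 0.00109), SNHG12 (-0.59 ± 0.11, edgeR adjusted p = 0.000133) and SNHG15 (-0.69 ± 0.18, edgeR adjusted p = 0.00246). Without the block the sizes were nearly the same, at -0.36, -0.63, -0.60 and -0.69. GAS5, for example, measured 172, 353 and 186 CPM in the panobinostat libraries 1, 2 and 3, against 238, 377 and 277 CPM in the vehicle libraries of those numbers. Each of these 6 hosts was lower with panobinostat in 3 of 3 same-numbered pairs, as was ZFAS1, which did not pass (-0.15 ± 0.08). Without the block, GAS5 (-0.78) and SNHG15 (-1.12) passed on leaving out panobinostat library 2, and SNHG1 (-0.88) on leaving out vehicle library 1. SNHG5 and SNHG6 did not pass with or without the block (0.13 and -0.08 without it). Without the 4 libraries numbered 2, 2 hosts passed. SNHG8 was among them and SNHG16 was not (-0.31), so they were not the same 2 as with all libraries.

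The combination in JJN3 lowered 3 hosts, SNHG8, SNHG15 and SNHG16, and raised 0, with 21% of all genes tested called higher and 18.2% lower. SNHG8 measured 310.3, 363 and 329 CPM with both drugs, against 524, 652 and 497 CPM with vehicle (log2 fold change -0.85 ± 0.14, edgeR adjusted p = 0.000137). SNHG15 measured 8.39, 11.3 and 13.0 CPM with both drugs, against 23.1, 41.5 and 21.4 CPM with vehicle (log2 fold change -1.52 ± 0.36, edgeR adjusted p = 0.00437). SNHG16 measured 111, 106 and 99.5 CPM with both drugs, against 117, 135 and 125 CPM with vehicle (log2 fold change -0.36 ± 0.11, edgeR adjusted p = 0.0146). All 3 were free of overlap; the call of SNHG16 was lost without combination library 3 (-0.31) and under library size alone (-0.25). Library size alone moved the median of all JJN3 genes by 0.11 here.

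GAS5 fell short of the threshold with both drugs in JJN3 although its groups did not overlap, at 155, 233 and 182 CPM with both drugs, against 238, 377 and 277 CPM with vehicle (log2 fold change -0.76 ± 0.29, edgeR adjusted p = 0.0543). It passed on leaving out vehicle library 1 (-0.90), CX-5461 library 2 (-0.76), panobinostat library 1, 2 or 3 (-0.77, -0.78 and -0.76), combination library 2 (-0.95) or the 4 libraries numbered 2 (-0.75). With the replicate block it was lower by -0.75 ± 0.09 (edgeR adjusted p = 3.82e-08), and 7 hosts were called lower and 0 higher (27.6% of all genes tested higher and 25.9% lower). The others added were SNHG12 (-0.63 ± 0.11, edgeR adjusted p = 2.84e-05), SNHG1 (-0.38 ± 0.14, edgeR adjusted p = 0.0232) and SNHG6 (-0.21 ± 0.07, edgeR adjusted p = 0.0186). Without the block, SNHG12 (-0.65) passed on leaving out vehicle library 1, CX-5461 library 1 or 2, or panobinostat library 1 or 2 (-0.65 to -0.815), and SNHG1 on leaving out vehicle library 1 (-0.65). Each of the 7 was lower in 3 of 3 same-numbered pairs. SNHG5 (-0.02 ± 0.09) and ZFAS1 (-0.18 ± 0.08) did not pass with the block. Without the 4 libraries numbered 2, 4 hosts passed. The median over the 9 was -0.36 with panobinostat and -0.39 with both drugs, beside 0.01 and 0.00 over all genes tested.

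Against panobinostat alone, the combination in JJN3 changed 0 of the 9 hosts (edgeR, with 2 at an unadjusted p under 0.05, and 0 by DESeq2 or limma-voom), with 0.184% of all genes tested called higher and 0.719% lower. With the replicate block it lowered 3, where 5.78% of all genes were called higher and 6.48% lower: GAS5 (log2 fold change -0.35 ± 0.09), SNHG8 (-0.39 ± 0.08) and SNHG15 (-0.77 ± 0.20). Against CX-5461 alone it lowered SNHG8 (-0.61) and SNHG15 (-1.23) and raised 0, with 18.8% of all genes called higher and 15.6% lower. The block added GAS5 (-0.62), ZFAS1 (-0.23) and SNHG12 (-0.37) to the lower side, making 5, with 25.8% of all genes higher and 23.2% lower. Between CX-5461 libraries and those with both drugs, SNHG15 thus measured 8.39, 11.3 and 13.0 CPM with both drugs, against 14.2, 33.1 and 26.3 CPM with CX-5461. Its call against CX-5461 was lost without CX-5461 library 2 (-0.96) or combination library 1 (-1.08). GAS5 passed there on leaving out panobinostat library 2 (-0.67) or the 4 libraries numbered 2 (-0.59).

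Most genes differed between the lines at rest, and most of the hosts were among them. With vehicle, 5 of the 9 were higher in JJN3 than in MM1.S and 2 lower, with 30.2% of all genes tested called higher and 33.5% lower. SNHG5 differed most: it measured 126, 152 and 127 CPM in JJN3, against 573, 485 and 472 CPM in MM1.S (log2 fold change -1.96 ± 0.14, edgeR adjusted p = 7.68e-14). ZFAS1 measured 296, 564 and 315 CPM in JJN3, against 124, 119 and 116 CPM in MM1.S (1.67 ± 0.28, edgeR adjusted p = 4.76e-05). Neither gene had overlapping groups.

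GAS5 (1.16 ± 0.24, edgeR adjusted p = 0.000234), SNHG15 (1.06 ± 0.28, edgeR adjusted p = 0.00187), SNHG16 (1.03 ± 0.12, edgeR adjusted p = 1.05e-08) and SNHG6 (0.69 ± 0.14, edgeR adjusted p = 9.35e-05) were also higher in JJN3 on the log2 scale. SNHG6 measured 1149, 1509 and 1082 CPM in JJN3, against 777, 749.5 and 734 CPM in MM1.S. SNHG12 was lower in JJN3 (-0.59 ± 0.20, edgeR adjusted p = 0.0129), a call lost without MM1.S vehicle library 3 (-0.48), JJN3 vehicle library 1 (-0.39) or JJN3 vehicle library 3 (-0.47). SNHG1 (-0.39 ± 0.25) and SNHG8 (0.09 ± 0.12) did not pass. The 7 calls were the same in number without the 4 JJN3 libraries numbered 2.

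The treatments were then compared between lines by the interaction of line and drug. For CX-5461, 0 of the 9 hosts differed (edgeR, with 0 at an unadjusted p under 0.05, and 0 by DESeq2 or limma-voom), with 0.287% of all genes tested called higher and 1.03% lower for JJN3 minus MM1.S. With the replicate block, 2 were lower in JJN3, ZFAS1 (-0.50 ± 0.12, edgeR adjusted p = 0.00584) and SNHG12 (-0.58, edgeR adjusted p = 0.00883), with 1.63% of all genes higher and 2.89% lower.

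The effect of panobinostat differed for ZFAS1. The difference, JJN3 minus MM1.S, was -1.28 ± 0.39 on the log2 scale (edgeR adjusted p = 0.0171, 95% interval -2.11 to -0.46), with 0 hosts called higher and 1 lower, beside 18.9% of all genes tested higher and 14.4% lower. The call was lost without JJN3 vehicle library 2 (-0.99, edgeR adjusted p = 0.0537). With the replicate block it was -1.29 (edgeR adjusted p = 6.56e-12), and SNHG12 joined it at -0.69 (edgeR adjusted p = 0.000151); in this blocked fit 23.1% of all genes were higher and 17.8% lower. Without the block SNHG12 was at -0.70 (edgeR adjusted p = 0.0615) and passed without the 4 JJN3 libraries numbered 2 (-0.72) and on leaving out 1 of 8 single libraries: MM1.S panobinostat 1, JJN3 vehicle 1, JJN3 CX-5461 1, 2 or 3, JJN3 panobinostat 2, or JJN3 combination 2 or 3 (-0.70 to -0.91).

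For the combination, ZFAS1 (-1.54 ± 0.39, edgeR adjusted p = 0.0053) and SNHG12 (-1.26 ± 0.285, edgeR adjusted p = 0.00128) were called lower and 0 higher, with 18.8% of all genes called higher and 14% lower. Both calls were kept in all 33 alternative settings. The block added GAS5 (-0.59, edgeR adjusted p = 0.000438) and SNHG8 (-0.29, edgeR adjusted p = 0.0337), making 4, with 23.1% of all genes higher and 17.3% lower. Without the block GAS5 passed without the 4 JJN3 libraries numbered 2 (-0.66), and SNHG8 without JJN3 vehicle library 3 (-0.47) or JJN3 combination library 2 (-0.46). The level of ZFAS1 with both drugs was 366 ± 94.8 CPM in JJN3 and 344 ± 50.1 CPM in MM1.S (SD, n = 3 each), while with vehicle it was 392 ± 149.8 CPM in JJN3 and 119.5 ± 4.10 CPM in MM1.S. The libraries with vehicle did not overlap between the lines, and those with both drugs did. For SNHG15, which fell in both lines, the difference of -0.38 ± 0.44 did not pass (edgeR adjusted p = 0.544), with a 95% interval of -1.28 to 0.51.

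**Figure D4:**
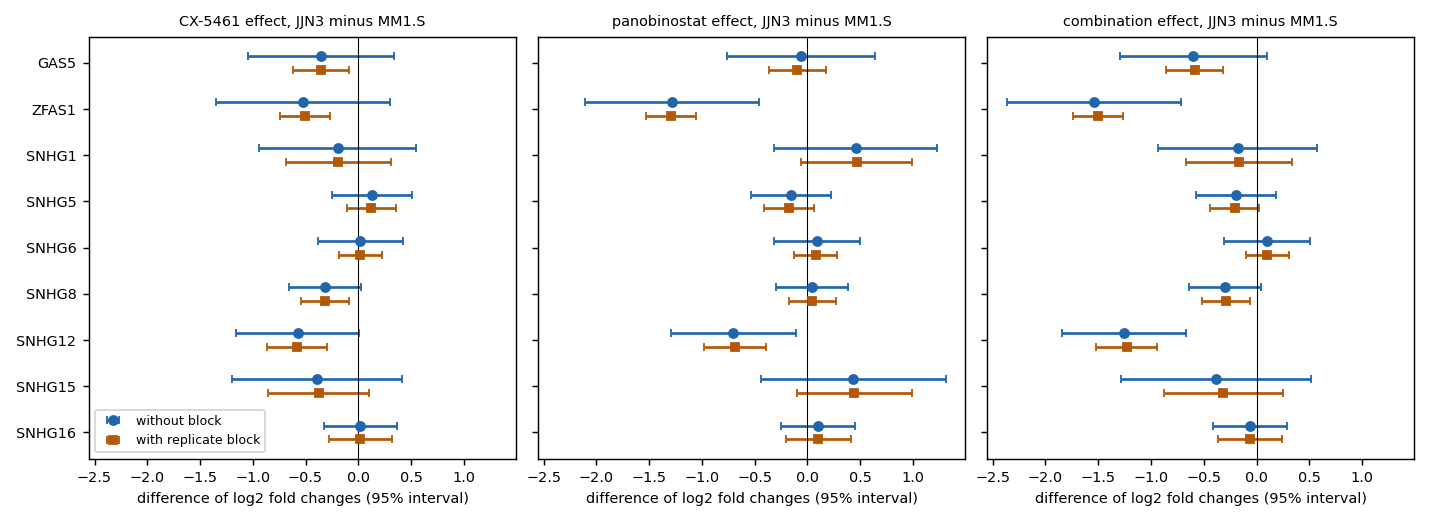
Difference of the effect of each treatment between the lines, JJN3 minus MM1.S, in log2 units on the horizontal axis with its 95% interval, for the 9 host genes, without and with the replicate block. ZFAS1 is at -1.28 for panobinostat and -1.54 for the combination without the block, and SNHG12 at -1.26 for the combination, while the intervals of SNHG6 span 0 in all 3 panels.

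The snoRNAs that the hosts carry have rows of their own in the count tables. Of 33 listed, 28 had a count in MM1.S (3448 counts in all 12 libraries) and 25 in JJN3 (1250 counts), and 5 in MM1.S and 4 in JJN3 passed the filter, so that these are the few with most reads. The libraries were made from polyadenylated RNA, and a read on such a row can come from the snoRNA or from the intron of the host around it. The sequences of SNORD26 and SNORD99 are shown because theirs were the largest log2 fold changes of the 5 rows tested in MM1.S, for panobinostat and for both drugs, each against vehicle. They are given 5′ to 3′ from the transcripts of the GENCODE annotation of GRCh38, with the D box in capitals.
SNORD26 (chr11:62855292-62855366, minus strand): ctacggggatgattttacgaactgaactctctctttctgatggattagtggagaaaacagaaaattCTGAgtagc
SNORD99 (chr1:28578749-28578822, minus strand): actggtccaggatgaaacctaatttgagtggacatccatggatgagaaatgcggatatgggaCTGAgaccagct
In that annotation an exon of 1 of 25 SNHG1 transcripts covers SNORD26, and 0 of 17 SNHG12 transcripts have an exon over SNORD99. Over SNORA61, also tested, 4 of the 17 SNHG12 transcripts have an exon. No such value was obtained for SNORD50A and SNORD81.

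With panobinostat in MM1.S, 3 of the 5 snoRNA rows tested rose and 0 fell, beside 36.9% of all genes tested called higher and 32.9% lower. SNORD26, in an intron of SNHG1, measured 11.4, 12.3 and 10.8 CPM with panobinostat, against 4.81, 9.16 and 5.39 CPM with vehicle (log2 fold change 0.72 ± 0.25, edgeR adjusted p = 0.0143). In the same libraries SNHG1 fell, so that SNORD26 had 26.5%, 32.8% and 19.5% as many counts as its host with panobinostat, against 6.32%, 13.8% and 4.61% with vehicle. SNORD99, in an intron of SNHG12, measured 4.385, 6.415 and 5.90 CPM with panobinostat, against 1.925, 2.44 and 2.54 CPM with vehicle (1.14 ± 0.37, edgeR adjusted p = 0.00848). SNORD50A, from SNHG5, was at 0.56 ± 0.24 (edgeR adjusted p = 0.0397). None of these groups overlapped.

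The call of SNORD26 was lost without vehicle library 1 (0.55) or vehicle library 3 (0.59). That of SNORD50A was lost without vehicle library 1 (0.53) or 2 (0.49), panobinostat library 1 (0.48) or 3 (0.49), combination library 1 (0.54) or 3 (0.54), with DESeq2's test (0.56), without a filter (0.50) and with a filter at 1 CPM (0.53). SNORA61, from SNHG12 (0.55, edgeR adjusted p = 0.0654), and SNORD81, from GAS5 (-0.14), did not pass, SNORA61 except without vehicle library 3 (0.72) or panobinostat library 2 (0.67) and under library size alone (0.69).

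With both drugs in MM1.S, 4 of the 5 rows rose and 0 fell, beside 37% of all genes tested called higher and 33.2% lower. SNORD26 measured 18.2, 15.8 and 15.4 CPM with both drugs, against 4.81, 9.16 and 5.39 CPM with vehicle (log2 fold change 1.205 ± 0.245, edgeR adjusted p = 0.000115). SNORD50A measured 15.01, 13.1 and 15.6 CPM with both drugs, against 6.26, 6.11 and 7.45 CPM with vehicle (0.96 ± 0.23, edgeR adjusted p = 0.000664). SNORD99 (1.15 ± 0.37, edgeR adjusted p = 0.00728) lost its call without combination library 1 (0.86), and SNORA61 stood at 0.84 ± 0.26 (edgeR adjusted p = 0.0054). SNORD81 was at -0.34 (edgeR adjusted p = 0.0707) and passed without panobinostat library 1 (-0.37) or combination library 2 (-0.43) and with a filter at 1 CPM (-0.39). With CX-5461 alone 0 of the 5 passed (edgeR), and SNORD50A (-0.64) did so on leaving out CX-5461 library 1 (-0.97). The level of MALAT1, a nuclear noncoding RNA, moved with panobinostat too, at 56640, 61070 and 75380 CPM with panobinostat, against 4384, 5929 and 5954 CPM with vehicle in MM1.S, and its part in the reads on snoRNA rows was not tested.

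In JJN3, 0 of the 4 rows tested passed with any treatment against vehicle (edgeR), and with the replicate block SNORD26 was lower with both drugs (-0.93 ± 0.33, edgeR adjusted p = 0.02). The combination effect differed between lines for SNORD26 (-2.07 ± 0.57, edgeR adjusted p = 0.00566) and SNORD50A (-1.305 ± 0.41, edgeR adjusted p = 0.0144). The call of SNORD50A was lost without the 4 JJN3 libraries numbered 2 (-1.175). With vehicle, SNORD81 measured 2.23, 4.93 and 2.84 CPM in JJN3, against 15.9, 17.9 and 18.4 CPM in MM1.S (log2 fold change -2.42 ± 0.27, edgeR adjusted p = 3.99e-09). GAS5, whose intron holds it, was higher in JJN3, so that SNORD81 had 0.937% to 1.31% as many counts as GAS5 in JJN3 and 12.6% to 14.7% in MM1.S.

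**Figure D5:**
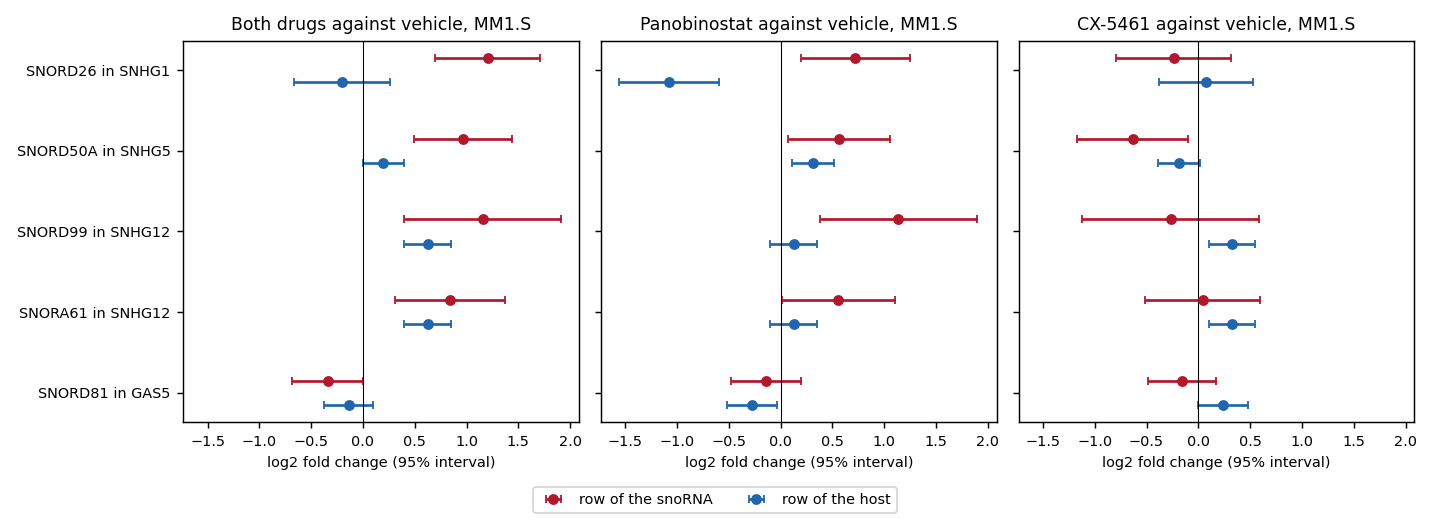
Log2 fold change against vehicle in MM1.S, on the horizontal axis with its 95% interval, of the 5 snoRNA rows that passed the filter and of the rows of their hosts, for both drugs, panobinostat and CX-5461. With panobinostat SNORD26 is at 0.72 and its host SNHG1 at -1.08, on opposite sides of 0.

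Some of the hosts share a start region with a gene on the other strand. In the GENCODE annotation of GRCh38, ZNFX1, which encodes a zinc finger helicase of antiviral defence, starts 248 bases from ZFAS1, and SLC3A2, which encodes the heavy chain of the CD98 amino acid transporter, starts 188 bases from SNHG1. The strand setting of the counting is not given in the sources used here, so reads of overlapping genes on opposite strands may not have been told apart. ZNFX1 rose with every treatment in MM1.S. It averaged 105 ± 4.52 CPM with both drugs, 105 ± 6.49 CPM with panobinostat and 45.6 ± 1.98 CPM with CX-5461, against 21.7 ± 2.79 CPM with vehicle (SD, n = 3 each).

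The log2 fold changes of ZNFX1 in MM1.S were 2.10 ± 0.12, 2.14 ± 0.12 and 0.99 ± 0.12 in that order, with edgeR adjusted p from 1.14e-06 to 2.12e-14, and its departure from additivity was -1.03 ± 0.16 (edgeR adjusted p = 0.00013). In JJN3 they were -0.17, -0.04 and -0.12 and did not pass. ZNFX1 therefore moved in the same direction as ZFAS1 in each MM1.S comparison with vehicle, and at 67.2, 101 and 115 CPM in JJN3 with vehicle it was also higher there (2.07 ± 0.19, edgeR adjusted p = 2.12e-10). The difference between lines passed for both drugs (-2.26 ± 0.26), panobinostat (-2.16 ± 0.26) and CX-5461 (-1.11 ± 0.26, edgeR adjusted p = 0.0238).

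The CX-5461 difference of ZNFX1 was lost on leaving out MM1.S vehicle library 1 (-1.06) or 2 (-1.08), MM1.S CX-5461 library 2 (-1.09) or 3 (-1.11), JJN3 vehicle library 2 (-1.05) or 3 (-0.96), JJN3 CX-5461 library 1 (-0.91) or the 4 JJN3 libraries numbered 2 (-1.075), and under library size alone (-1.13).

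SLC3A2 and SNHG1 fell together with panobinostat in MM1.S and differed with CX-5461. SLC3A2 rose with CX-5461, at 126, 147 and 149.9 CPM with CX-5461, against 50.1, 84.7 and 55.6 CPM with vehicle (log2 fold change 1.085 ± 0.14, edgeR adjusted p = 8.61e-06), where SNHG1 was at 0.07 ± 0.21 and did not pass. SLC3A2 fell with panobinostat (-0.86 ± 0.15, edgeR adjusted p = 3.34e-05). With both drugs in MM1.S it was lower by -0.40 ± 0.15 (edgeR adjusted p = 0.0207, with overlapping groups), where SNHG1 did not pass (-0.20). This call of SLC3A2 was lost without MM1.S vehicle library 2 (-0.18) or combination library 1 (-0.34) and under library size alone (-0.23). In JJN3 SLC3A2 fell with both drugs (-1.08 ± 0.28, edgeR adjusted p = 0.00709) and with panobinostat (-0.81 ± 0.28, edgeR adjusted p = 0.0462, with overlapping groups). The last call was lost without JJN3 vehicle library 2 (-0.53), panobinostat library 1 (-0.72) or 3 (-0.65), or combination library 1, 2 or 3 (-0.81 each). ZBTB37, whose start lies 800 bases from that of GAS5, had 6 to 17 counts per group and was not tested. AC015802.4, annotated as antisense, starts 83 bases from SNHG16, and no row of the counts was matched to it.

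Other genes of snoRNA production, from lists chosen with earlier results of these data known, were counted in the same fits. Over all genes tested in MM1.S, 36.9% were called higher and 32.9% lower with panobinostat, 37% higher and 33.2% lower with both drugs, and 9.68% higher and 7.06% lower with CX-5461. In JJN3 it was 15% higher and 10.9% lower with panobinostat and 21% higher and 18.2% lower with both drugs. The JJN3 shares with the replicate block were 22.4% higher and 19.5% lower with panobinostat and 27.6% higher and 25.9% lower with both drugs. The counts of each list below stand beside these shares. Of 18 further long noncoding hosts, 12 were tested, and with panobinostat in MM1.S 1 rose (SNHG18, log2 fold change 1.15) and 6 fell, among them SNHG17 (-1.81) and SNHG3 (-1.35). With both drugs 2 rose and 5 fell in MM1.S (median -0.05), and with CX-5461 0 rose and 4 fell, among them SNHG18 (-1.03), DANCR (-0.55) and SNHG19 (-0.54). In JJN3, panobinostat and the combination each raised 1, SNHG18 (1.98 with panobinostat), and lowered 4, among them SNHG17 (-0.63 with panobinostat) and SNHG3 (-0.72 with panobinostat), and CX-5461 changed 0 (edgeR, 1 at an unadjusted p under 0.05). Of 41 protein-coding hosts tested in MM1.S, 7 rose and 15 fell with panobinostat, the lower ones a share near that of all genes. Among these were RCC1, the nucleotide exchange factor of Ran (-2.001), and NOP56 (-2.17). In JJN3, 0 rose and 7 fell with panobinostat (1 higher and 12 lower with the replicate block), among them NCL, which encodes nucleolin (-1.10).

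Genes of the proteins that bind snoRNAs were counted in the same way, beside 36.9% of all genes higher and 32.9% lower with panobinostat in MM1.S and 15% higher and 10.9% lower in JJN3. Of 11 box C/D core and assembly genes, 1 rose and 6 fell with panobinostat in MM1.S (median log2 fold change -0.85, beside 0.07 over all genes), among them NOP56 (-2.17 ± 0.135) and NOP58 (-0.92 ± 0.10), core proteins of the particle. In JJN3 0 rose and 5 fell with panobinostat, and 0 rose and 6 fell with both drugs, among them NOP56 (-1.25 ± 0.185 with both drugs) and NOLC1 (-1.01 ± 0.17), a nucleolar phosphoprotein. With CX-5461 in MM1.S 0 rose and 4 fell. Of 6 box H/ACA genes, 1 rose and 4 fell with panobinostat in MM1.S, among them DKC1 (-1.58 ± 0.12), the pseudouridine synthase dyskerin, and GAR1 (-1.21 ± 0.13). In JJN3 0 rose and 2 fell with panobinostat.

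Of 20 factors of nonsense-mediated decay, 3 rose and 12 fell with panobinostat in MM1.S (median -0.35, beside 0.07 over all genes), among them MAGOHB (-1.29) and SMG5 (-1.245), and 3 rose and 2 fell with CX-5461, SMG9 (0.69) and UPF3B (0.42) among the higher. In JJN3 0 rose and 7 fell with panobinostat, beside 15% of all genes higher and 10.9% lower, and with the replicate block 0 rose and 13 fell, beside 22.4% higher and 19.5% lower. Of 21 genes with 5′TOP mRNAs other than those of ribosomal proteins, 0 rose and 7 fell with CX-5461 in MM1.S, among them EIF3E (-0.57), a subunit of an initiation factor, and NPM1 (-0.45), which encodes nucleophosmin, and 4 rose and 5 fell with panobinostat. Of 7 regulators of such mRNAs, 1 rose and 4 fell with panobinostat in MM1.S, among them LARP1 (-1.40), which binds their 5′ ends, and 1 rose and 3 fell in JJN3 (LARP1 -0.64). Of 76 cytosolic ribosomal protein genes, 14 rose and 19 fell with panobinostat in MM1.S and 1 rose and 10 fell with CX-5461. In JJN3 0 rose and 10 fell with both drugs, beside 21% of all genes higher and 18.2% lower. Under the replicate block 1 rose and 48 fell, beside 27.6% of all genes higher and 25.9% lower.

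The hosts did not move as 1 group over the libraries. Taking each gene's log2 CPM with the mean of its line removed, the Pearson correlation over 24 libraries was above 0.5 for 14 of the 36 pairs of hosts and below 0 for 8 (median 0.38). It was 0.92 between SNHG8 and SNHG15, 0.86 between GAS5 and SNHG15, and -0.44 between SNHG1 and SNHG5. These values describe libraries that share treatment, depth and, in JJN3, replicate number. Over 8566 other genes, the closest to ZFAS1 were PLEKHM3 (r = 0.90), FAM131A and PPARA, and the closest to SNHG15 were RIPOR1 (r = 0.95), METTL8 and GNL3. METTL8 (r = 0.95) and GNL3 were also among the closest 3 to SNHG8, with TMEM18. SNHG5 was closest to RPS25 (r = 0.90), ANKIB1 and RPL3, and SNHG6 to RPL14 (r = 0.88), RPS23 and HSP90B1, so that each had a pair of ribosomal protein genes among its closest 3. The nearest genes were COQ8A to GAS5 (r = 0.89), SURF6 to SNHG1 (r = 0.835), MNT to SNHG12 (r = 0.80) and ZNF593 to SNHG16 (r = 0.84).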

How the data were processed

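RNA of MM1.S and JJN3 cells, taken after 24 h of treatment, was made into polyadenylated 3′ RNA-seq libraries, per the labels' protocols, 3 for each of 8 groups. The authors deposited raw counts per gene, 1 column per library, keyed by NCBI Gene identifier. HISAT2 2.2.1, featureCounts 2.0.1, limma 3.50.0 and the builds GRCh37 and hg19 are named in the submitters' processing notes; neither the annotation nor the strand setting is given in the sources used here. Of 28395 identifiers, 27745 were matched to a symbol in the gene name table. Where the treatment label and the title of a JJN3 CX-5461 sample gave the compound differently, the title was followed.

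Counts were tested with edgeR 4.0.16 in R 4.3.3 (TMM scaling, default expression filter, robust quasi-likelihood F test, two-sided, Benjamini-Hochberg adjustment over all genes tested, threshold 0.05). Each line was fitted on its 12 libraries with 4 group means (12030 genes in MM1.S, 11411 in JJN3), and differences between lines on all 24 libraries with 8 means (12872 genes). SE is the log2 fold change divided by the square root of F. Levels are counts over library totals (4751893 to 7305069), and shares of counts carry counting error beside the spread between libraries. DESeq2 1.42.0 and limma-voom (limma 3.58.1), other scalings and filters, single libraries left out, and a block for the replicate number were alternatives. Over all genes, same-numbered JJN3 libraries deviated together (correlations 0.201 to 0.485, different numbers -0.337 to -0.00791), so the numbers were taken as pairs there. In MM1.S they were not taken as pairs. There the same-numbered correlations (-0.0474 to 0.29) were mostly positive but overlapped those of different numbers (-0.29 to 0.1455). Replicate pairs differed by 4.35 to 15.4 times the sampling noise (chi-square per degree of freedom), so no library was counted as a repeat. The scripts were tested on simulated data. A check of the lines is not reported here. Tables were handled with pandas 2.3.3 and numpy 2.4.6 and drawn with matplotlib 3.10.9.

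The members, the related lists and the neighbours were chosen with earlier results of these data known. All 9 members are named. Among related lists, the genes named are called ones with the smallest adjusted p, and others may have changed more. SNHG20, for example, averaged 1.98 CPM with panobinostat and 7.48 CPM with vehicle in MM1.S. The closest 3 genes are those with the highest correlation among genes averaging at least 3 on the log2 CPM scale.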

Additional observations from a re-analysis of the deposited data

Results flagged for a closer look

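The effects of the drugs differed between the lines, by the interaction of line and treatment (edgeR, JJN3 minus MM1.S, log2 scale), for 2 of the host genes, 2 of their snoRNA rows and 2 neighbouring genes. Over all genes tested, 18.9% were called higher and 14.4% lower for panobinostat, and 18.8% higher and 14% lower for the combination. For CX-5461 it was 0.287% higher and 1.03% lower. ZFAS1 had -1.28 for panobinostat and -1.54 for the combination, and SNHG12 had -1.26 for the combination. The panobinostat call of ZFAS1 was lost without JJN3 vehicle library 2 (-0.99). Of the snoRNA rows, SNORD26 had -2.07 and SNORD50A -1.305 for the combination.

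ZNFX1, whose start lies 248 bases from that of ZFAS1, had -2.16 for panobinostat, -2.26 for the combination and -1.11 for CX-5461. SLC3A2, whose start lies 188 bases from that of SNHG1, had -1.38 for CX-5461 (adjusted p = 0.0448). This last call was lost on leaving out any of 20 of the 24 libraries, with values of -1.08 to -1.51, and was kept without MM1.S vehicle library 2 or JJN3 vehicle library 1, CX-5461 library 2 or panobinostat library 2. The call was also lost with a filter at 1 CPM in 3 libraries (-1.38, edgeR adjusted p = 0.06175). With the replicate block the difference was -1.40 (edgeR adjusted p = 2.6e-07).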

How the results depend on the processing

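No direction was reversed in any setting run for a called value. The number of the 9 hosts called moved by over 1.5 times in these cases. Without a filter on low counts it was 5 for panobinostat in JJN3 (2 in the reported fit), 6 for both drugs in JJN3 (3), 4 for both drugs against CX-5461 in JJN3 (2), 1 for both drugs against panobinostat in JJN3 (0), 1 for the departure from additivity in MM1.S (0) and 2 for the difference in panobinostat effect between lines (1). With the replicate block it was 6, 7, 5, 3, 2 and 2 for the same comparisons in that order, 2 for the difference in CX-5461 effect (0) and 4 for the difference in combination effect (2). DESeq2's test called 5 for both drugs in JJN3. The difference in panobinostat effect had 2 called with DESeq2's size factors, DESeq2's test, library size alone or without the 4 JJN3 libraries numbered 2. Library size alone gave 1 for panobinostat in JJN3. It also gave 1 for both drugs against panobinostat in MM1.S (2), and a filter at 1 CPM in 3 libraries gave 1 there too.

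Leaving out 1 library gave 0 to 4 hosts for panobinostat in JJN3, 2 to 6 for both drugs in JJN3, 1 to 3 for both drugs against CX-5461 in JJN3, 0 to 2 for both drugs against panobinostat in MM1.S, 1 to 3 for CX-5461 in MM1.S, 0 to 1 for additivity in MM1.S and 0 to 2 for the difference in panobinostat effect. The cause was not tested. Of the other counts under alternatives, 321 stayed within 1.5 times. MM1.S replicate numbers were not taken as pairs. With the replicate block 3 hosts were called for CX-5461 in MM1.S (2 higher, 1 lower), 7 for panobinostat and 7 for both drugs. The lower one with CX-5461 was SNHG16. Of all genes tested in that fit, 11.7% were called higher and 9.48% lower with CX-5461. It was 37.8% higher and 33.8% lower with panobinostat, and 37.9% higher and 34% lower with both drugs. The blocked fit gives no value for vehicle between lines, since the blocks lie within lines. Low snoRNA counts limited which of those rows could be tested.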
